A study of Homo sapiens with 24 samples.

Results

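The immediate early response genes IER2, IER3, IER5 and IER5L and the proto-oncogene MYC were followed in H838 lung cancer cells around the scratching of their monolayer. Members were the probes of the deposited bead table annotated to these symbols: 7 probes of 47286 on the array, which stood for 5 of the 11494 genes tested. MYC and IER5L had 2 probes each. The second IER5L probe was detected above background on 0 of 24 arrays (lowest detection p-value 0.143) and was left out, and the other 6 were detected on 24 of 24.

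The H838 line comes from a human non-small cell lung cancer. Its monolayers shared a transwell system with HPAEC, endothelial cells cultured from human pulmonary artery, or, as the control, with further H838 cells. Only the H838 cells of the wells were lysed. Each co-culture gave 12 arrays: unscratched cells at 0 h (2 arrays), cells at 8 times from 0.5 to 15 h after scratching (1 array each) and cells at 24 h (2 arrays). All cultures, controls included, were kept in the medium of the HPAEC cells, which contains fetal calf serum, EGF, bFGF, IGF, VEGF, ascorbic acid, heparin and hydrocortisone, several of them growth factors. There was no unscratched array after 0 h, so time in culture and scratching cannot be told apart. H838 is 1 line, and whether the duplicates were separate cultures is not given in the sources used here, so p-values measure only the spread between these samples, which may be technical.

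The arrays lay on 2 chips of 12. Chip 1 held 10 of the 12 HPAEC arrays with the H838 arrays of 0 h (the first) and 0.5 h, and chip 2 held the others, so the chips separated the co-cultures almost fully. The labels of the second HPAEC arrays at 0 and 24 h name H838 as the partner line in one field and HPAEC in the title and co-culture fields. They were kept in the HPAEC group, and results that change without them are given. Endothelial markers were checked as a sign of carried-over HPAEC: 13 of 21, among them VWF, CDH5, KDR, TIE1 and EMCN, were detected on 0 arrays of either co-culture, while MMRN1, EGFL7 and SOX18 were detected on all 24. The remaining ones were detected on some arrays. The summed linear level of the endothelial list was 3840.55 to 5759.85 in H838 beside HPAEC and 3666.63 to 5256.26 in H838 beside H838, and 0 of its 5 tested genes passed the co-culture test. SOX18, detected in both co-cultures, makes up most of this sum, with a mean log2 level of 11.65 over the unscratched arrays. The co-culture test nearly coincided with the chips and called 2.02% of all genes. Neither could therefore decide whether HPAEC were carried over. Over time 3 of the 5 tested endothelial markers passed limma's F test (MMRN1, SOX18 and EGFL7), which called 22.9% of all genes. SOX18 was higher in the middle window of 3 to 5 h (0.27 on the log2 scale, limma adjusted p = 0.0445, with 15.3% of all genes called). MMRN1 was higher in the late window of 10 to 24 h (0.27, limma adjusted p = 0.0458, with 15.5% of all genes called). The part of these genes in the results below was not tested. Of 10 listed epithelial markers 9 were on the array. EPCAM and ELF3 were detected on all 24 arrays, KRT7 and CLDN4 on 0 and the remaining ones on some. Their summed level was 5851.61 to 6859.84 beside HPAEC and 6254.66 to 7888.74 beside H838. At 24 h, when 11.4% of all genes were called, 1 of 6 tested epithelial markers was called higher.

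Immediate early genes are transcribed within minutes of a stimulus from factors already present in the cell, and their messages are short-lived. Growth factors act on them largely through the ERK pathway, SRF with its ELK partners, and CREB. IER2 encodes a small nuclear protein. IER3, also known as IEX-1, modulates cell survival and ERK signalling. IER5 encodes an adaptor of the phosphatase PP2A that acts on the heat shock factor HSF1, and IER5L encodes its paralogue. MYC encodes a transcription factor that dimerizes with MAX and drives genes of ribosome biogenesis and growth.

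Positions are from RefSeq on GRCh38.p14. IER2 lies at chr19:13150411-13154911, IER3 at chr6:30743199-30744547, IER5 at chr1:181088700-181092900 and IER5L at chr9:129175552-129178261. The windows from 250 bases before to 50 bases after the gene start matched 3 of the 5 genes in the RefSeq table used and are shown as the regulatory sequence next to the genes measured. Capitals mark motif matches on either strand.
IER2, chr19:13150161-13150460 (+ strand): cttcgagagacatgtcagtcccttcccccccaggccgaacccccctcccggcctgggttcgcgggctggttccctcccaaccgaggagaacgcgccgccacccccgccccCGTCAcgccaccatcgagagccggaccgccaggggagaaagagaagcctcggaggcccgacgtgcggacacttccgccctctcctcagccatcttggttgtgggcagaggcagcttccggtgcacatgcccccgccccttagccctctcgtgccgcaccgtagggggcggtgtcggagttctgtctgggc
IER5, chr1:181088450-181088749 (+ strand): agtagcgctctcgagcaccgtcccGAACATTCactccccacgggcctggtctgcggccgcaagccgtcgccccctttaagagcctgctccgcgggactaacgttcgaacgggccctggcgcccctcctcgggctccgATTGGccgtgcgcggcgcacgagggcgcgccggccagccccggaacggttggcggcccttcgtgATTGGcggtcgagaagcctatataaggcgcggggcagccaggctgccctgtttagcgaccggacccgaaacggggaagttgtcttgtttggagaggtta
IER5L, chr9:129178212-129178511 (- strand): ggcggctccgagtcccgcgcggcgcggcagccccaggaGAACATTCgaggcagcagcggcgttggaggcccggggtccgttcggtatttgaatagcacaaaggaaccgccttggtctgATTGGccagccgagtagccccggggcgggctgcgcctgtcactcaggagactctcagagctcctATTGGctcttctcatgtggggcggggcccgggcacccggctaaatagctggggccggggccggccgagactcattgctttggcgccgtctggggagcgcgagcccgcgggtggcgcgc

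The windows were GC-rich (69.7% in IER2, 67.3% in IER5 and 69.3% in IER5L). IER2 held 1 match, the short cAMP response element TGACG on the minus strand at -140 to -136, which 24.6% of 35116 promoter windows of this length also hold. IER5 and IER5L held the same kinds of motif in the same order. Each held 1 pair of heat shock element units (GAANNTTC, at -226 to -219 in IER5 and at -212 to -205 in IER5L), a motif in 6.77% of all windows. Each also held 2 CCAAT boxes on the minus strand (at -113 to -109 and -49 to -45 in IER5, at -132 to -128 and -68 to -64 in IER5L), a motif in 34.6% of all windows. These last 2 motifs were chosen after the windows had been seen. The other motifs searched on both strands had no match in the 3 windows: the full cAMP response element TGACGTCA (in 1.85% of all windows), which contains the short element, the AP-1 site TGANTCA (7.71%), the E-box CACGTG (7.26%), the TATAAA box (11.5%), and, by name, the CArG box (1.29%) and the NF-kB site (11.3%). Only the letters of each motif were searched, so near variants were not counted, such as the TATA-like stretch tatataag in the IER5 window. A match is a description of the letters and not of binding.

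Over the course of the experiment 4 of the 5 genes changed with time and IER5 did not pass the test. By fitted level IER2 was highest at 1 h and IER3 at 2 h, IER5L was lowest at 15 h, and IER3 and MYC were lowest at 24 h. Of these, only the 1 h value of IER2 differed beyond its interval from the time next to it in level. The other highest and lowest times are therefore not resolved from the time next to them in level. In limma's moderated F test over the 9 later times (Benjamini-Hochberg adjusted over 11494 genes, threshold 0.05) the adjusted p was 0.000176 for IER3, 0.00491 for IER2, 0.00575 for MYC, 0.00581 for IER5L and 0.449 for IER5. That test called 22.9% of all genes (2629 of 11494). The same 4 genes passed it in each of the 24 fits that left out 1 array and in the fit without both second HPAEC arrays. With arrays scaled to a common median in place of quantile normalization, MYC missed the time test (adjusted p = 0.156), and the calls of IER3, IER5L and MYC given below for single times and windows were also lost (adjusted p 0.107 to 0.391), as was the 24 h call of IER2 in the duplicates beside HPAEC (-0.39, adjusted p = 0.276). All values below are log2 normalized probe intensities, or differences between them, and levels are not compared between genes. In bulk lysates a change in the share of responding cells and a change in RNA per cell cannot be told apart.

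**Figure D1:**
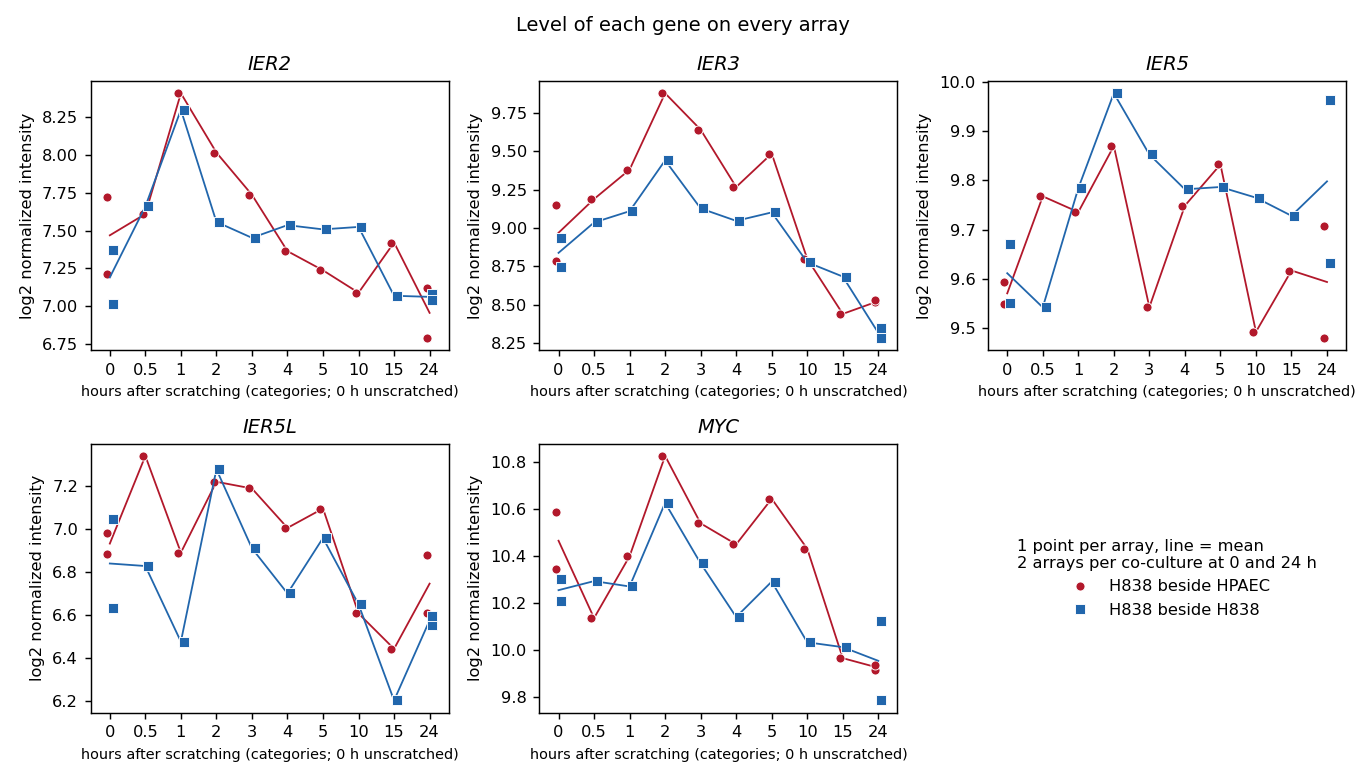
Log2 normalized intensity of each gene (y axis, 1 scale per panel) against hours after scratching (x axis, categories, 0 h unscratched), with 1 point per array, red circles for H838 beside HPAEC and blue squares for H838 beside H838; lines join the means. IER2 reached 8.41 beside HPAEC and 8.30 beside H838 at 1 h, and IER3 was highest at 2 h in both co-cultures.

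IER2 was highest at 1 h in both co-cultures. Beside HPAEC its level was 7.72 and 7.22 at 0 h, 7.61 at 0.5 h, 8.41 at 1 h, 8.01 at 2 h, 7.74 at 3 h, 7.36 at 4 h, 7.24 at 5 h, 7.09 at 10 h, 7.42 at 15 h and 7.12 and 6.79 at 24 h. Beside H838 it was 7.37 and 7.01 at 0 h, 7.66 at 0.5 h, 8.30 at 1 h, 7.56 at 2 h, 7.45 at 3 h, 7.54 at 4 h, 7.51 at 5 h, 7.52 at 10 h, 7.07 at 15 h and 7.08 and 7.04 at 24 h. Both 1 h arrays lay above all 4 unscratched arrays, as was the case for 5.28% of all genes, and at 4 h both co-cultures lay within the unscratched range. The fitted rise at 1 h over 0 h was 1.02 ± 0.17 (log2, SE; 95% interval 0.65 to 1.39), a 2.03-fold change with limma's adjusted p = 0.010. It was the 17th highest rise at that time, at which 0.339% of all genes were called. The call rests on both 1 h arrays: without the HPAEC or the H838 one the value was 1.02 to 1.03 with an adjusted p of 0.0750 to 0.128, and without both second HPAEC arrays it was 1.00 with an adjusted p of 0.0824. Within chip 1 the rise was 0.78 and within chip 2 it was 1.15. From 1 to 15 h each chip held 1 array per time, beside HPAEC on chip 1 and beside H838 on chip 2. Values within 1 chip at such a single time, here and below, therefore rest on 1 scratched array of 1 co-culture. Over 12 other settings of the processing, each chip alone among them, the rise ranged from 0.74 to 1.15. At 2 h the difference from 0 h was 0.46 ± 0.17 (adjusted p = 0.264).

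Averaged over windows, IER2 differed from 0 h by 0.56 ± 0.13 in the early window (0.5, 1 and 2 h; adjusted p = 0.0865), by 0.14 ± 0.13 in the middle window (3, 4 and 5 h; adjusted p = 0.509) and by -0.13 ± 0.13 in the late window (10, 15 and 24 h; adjusted p = 0.544). When its 10 times were ordered by fitted level, the gap between 1 h and the next time, 2 h, was 0.57 (95% interval 0.14 to 0.99). The other 8 neighbouring pairs did not differ beyond their interval. For IER3, IER5, IER5L and MYC, 0 of 9 neighbouring pairs did so. The gap for IER3 was 0.28 (-0.05 to 0.60) between 2 and 3 h and 0.14 (-0.14 to 0.43) between 15 and 24 h. It was 0.31 (-0.01 to 0.62) for IER5L between 10 and 15 h and 0.02 (-0.23 to 0.27) for MYC between 15 and 24 h. In the duplicated arrays alone (8 arrays, 3 residual degrees of freedom), IER2 beside HPAEC was lower at 24 h than at 0 h by a log2 difference of -0.51 ± 0.09 (limma adjusted p = 0.0392, against 5.05% of all genes called). Beside H838 the difference was 0.07 ± 0.10 (adjusted p = 0.752), and the difference between the co-cultures was -0.58 (adjusted p = 0.335). Leaving out any one of the 8 arrays ended the call beside HPAEC (-0.59 to -0.43, adjusted p 0.0673 to 0.225), and it passed in 4 of 9 other settings.

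IER3 rose at 2 h and fell below its unscratched level by 24 h. Beside HPAEC its level was 8.79 and 9.15 at 0 h, 9.19 at 0.5 h, 9.38 at 1 h, 9.88 at 2 h, 9.64 at 3 h, 9.27 at 4 h, 9.49 at 5 h, 8.80 at 10 h, 8.44 at 15 h and 8.52 and 8.53 at 24 h. Beside H838 it was 8.93 and 8.74 at 0 h, 9.04 at 0.5 h, 9.11 at 1 h, 9.44 at 2 h, 9.13 at 3 h, 9.05 at 4 h, 9.10 at 5 h, 8.78 at 10 h, 8.68 at 15 h and 8.28 and 8.35 at 24 h. Both 2 h arrays lay above, and all 4 of the 24 h arrays below, the 4 unscratched arrays, as in 7.96% and 8.04% of all genes. The fitted rise at 2 h was 0.76 ± 0.13, or 1.69-fold (limma adjusted p = 0.00633), the 40th highest rise at that time, at which 1.5% of all genes were called. Without the HPAEC 2 h array it was 0.63 (adjusted p = 0.114). It was 1.02 within chip 1 and 0.64 within chip 2. At 3 h the rise was 0.48 ± 0.13 (adjusted p = 0.0414, against 5.98% of all genes called).

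The 3 h call was lost without any one of 10 arrays (0.31 to 0.66, adjusted p 0.0503 to 0.409): the first and second 24 h arrays and the 3 h and 0.5 h arrays of both co-cultures, the first HPAEC 0 h array and the second H838 0 h array. It was also lost in a fit over all kept probes (adjusted p = 0.0623) and with no filter on dim probes (adjusted p = 0.0667). The middle window was higher than 0 h by 0.38 ± 0.10 (limma adjusted p = 0.0176), and it was lost without the first HPAEC 0 h array or the HPAEC 3 h array (0.30 to 0.32, adjusted p 0.0542 to 0.0772). Within chip 1 and chip 2 the 3 h change was 0.78 and 0.33, and the middle-window change 0.60 and 0.29. The early window differed by 0.44 ± 0.10 (adjusted p = 0.0780). IER3 was the only one of the 5 genes called in the middle window, at which 15.3% of all genes were called.

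The fall of IER3 at 24 h was -0.48 ± 0.11, or 0.715-fold (limma adjusted p = 0.00988), at a time when 5.62% of all genes were called lower. Without the second HPAEC 0 h array it was -0.37 (adjusted p = 0.116), and without both second HPAEC arrays -0.38 (adjusted p = 0.123). The late window changed by -0.31 ± 0.10 (limma adjusted p = 0.0359), and this call was lost without the HPAEC 10, 15 or first 24 h array, the second HPAEC 0 h array, either H838 0 h array or the first H838 24 h array (-0.34 to -0.22, adjusted p 0.0509 to 0.245). Without both second HPAEC arrays it was -0.21 (adjusted p = 0.298), and it missed the threshold over all kept probes (adjusted p = 0.0508) and with no filter (adjusted p = 0.0583). Within chip 1 and chip 2 the change was -0.35 and -0.51 at 24 h, and -0.28 and -0.22 in the late window. In the duplicated arrays of both co-cultures the 24 h minus 0 h difference was -0.50 ± 0.10 (limma adjusted p = 0.0330, against 9.51% of all genes called). That call was kept only without the first HPAEC 0 h array and was lost without each of the other 7 (-0.63 to -0.35, adjusted p 0.0669 to 0.152), over all kept probes (adjusted p = 0.0521) and with no filter (adjusted p = 0.0667).

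**Figure D2:**
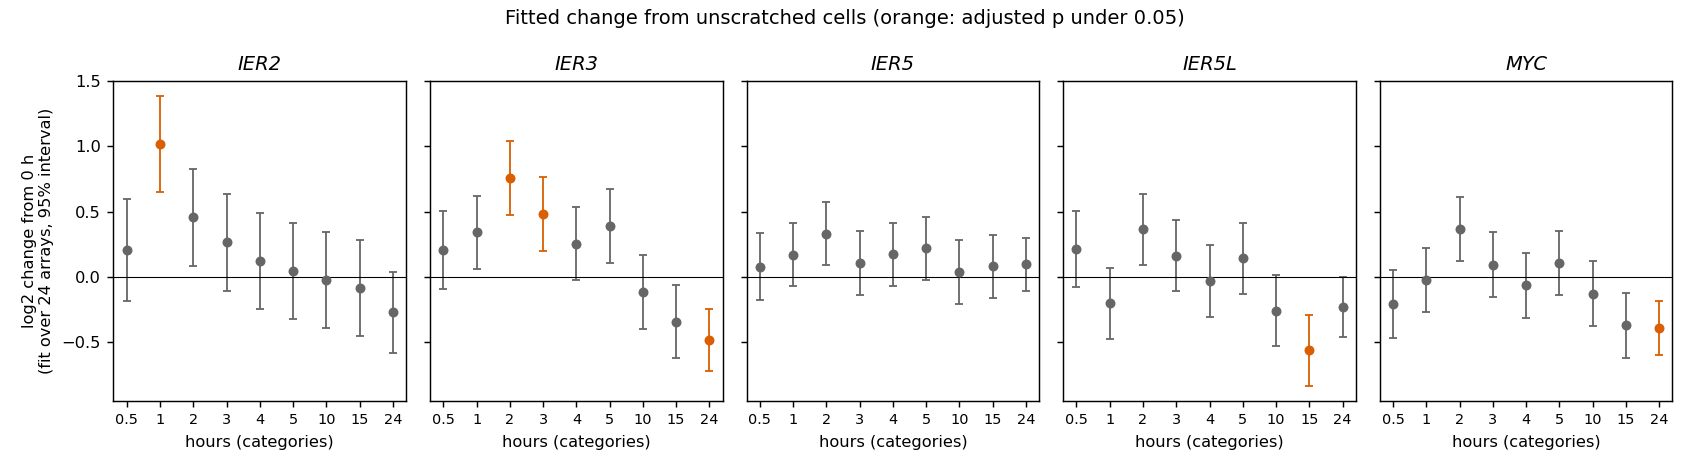
Fitted log2 change from unscratched cells (y axis) at each later time (x axis, categories), 1 panel per gene, from the model over 24 arrays with 95% intervals; orange points passed an adjusted p of 0.05. IER2 passed at 1 h (1.02), IER3 at 2, 3 and 24 h (0.76, 0.48 and -0.48), IER5L at 15 h (-0.56), MYC at 24 h (-0.39) and IER5 at none.

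IER5 varied least of the 5 genes. Beside HPAEC its level was 9.59 and 9.55 at 0 h, 9.77 at 0.5 h, 9.74 at 1 h, 9.87 at 2 h, 9.54 at 3 h, 9.75 at 4 h, 9.83 at 5 h, 9.49 at 10 h, 9.62 at 15 h and 9.71 and 9.48 at 24 h. Beside H838 it was 9.55 and 9.67 at 0 h, 9.54 at 0.5 h, 9.78 at 1 h, 9.98 at 2 h, 9.85 at 3 h, 9.78 at 4 h, 9.79 at 5 h, 9.76 at 10 h, 9.73 at 15 h and 9.96 and 9.63 at 24 h. All 24 arrays lay within 0.497 of each other on the log2 scale. Both 2 h arrays lay above all 4 unscratched arrays, as in 7.96% of all genes, but the fitted difference of 0.33 ± 0.11 did not pass limma's test (adjusted p = 0.205). The windows differed from 0 h by 0.19 (early), 0.17 (middle) and 0.07 (late), with adjusted p of 0.390, 0.214 and 0.605. IER5's profile in the 2 co-cultures shared little: the correlation over 10 times was 0.217, given as a description.

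IER5L, the paralogue, fell late. Beside HPAEC its level was 6.98 and 6.88 at 0 h, 7.34 at 0.5 h, 6.89 at 1 h, 7.22 at 2 h, 7.19 at 3 h, 7.01 at 4 h, 7.10 at 5 h, 6.61 at 10 h, 6.44 at 15 h and 6.88 and 6.61 at 24 h. Beside H838 it was 6.63 and 7.05 at 0 h, 6.83 at 0.5 h, 6.48 at 1 h, 7.28 at 2 h, 6.91 at 3 h, 6.70 at 4 h, 6.96 at 5 h, 6.65 at 10 h, 6.20 at 15 h and 6.56 and 6.60 at 24 h. Both 15 h arrays lay below all 4 unscratched arrays, as in 13% of all genes. The fitted change at 15 h was -0.56 ± 0.13, or 0.676-fold (limma adjusted p = 0.0176), at which 6.59% of all genes were called. It was lost without either 15 h array (-0.60 to -0.53, adjusted p 0.114 to 0.155), and it was -0.58 within chip 1 and -0.79 within chip 2. The late window changed by -0.35 ± 0.09 (limma adjusted p = 0.0183). The late call was lost without the first HPAEC 0 h, the HPAEC 10 h or the second H838 0 h array (-0.35 to -0.26, adjusted p 0.0509 to 0.0757), and the late change was -0.38 within chip 1 and -0.50 within chip 2. In the authors' normalized table the 15 h change was -0.20 (adjusted p = 0.204) and the late change -0.15 (adjusted p = 0.136). Its early and middle windows differed from 0 h by 0.12 and 0.09 (adjusted p = 0.655 and 0.582), and its 2 h value by 0.36 ± 0.13 (adjusted p = 0.226).

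MYC, at chr8:127735434-127742951 (GRCh38.p14), was not called in the early window and fell late. Beside HPAEC the brighter probe had a level of 10.59 and 10.35 at 0 h, 10.14 at 0.5 h, 10.40 at 1 h, 10.83 at 2 h, 10.54 at 3 h, 10.45 at 4 h, 10.64 at 5 h, 10.43 at 10 h, 9.97 at 15 h and 9.91 and 9.94 at 24 h. Beside H838 it was 10.30 and 10.21 at 0 h, 10.29 at 0.5 h, 10.27 at 1 h, 10.63 at 2 h, 10.37 at 3 h, 10.14 at 4 h, 10.29 at 5 h, 10.03 at 10 h, 10.01 at 15 h and 10.12 and 9.79 at 24 h. Both 15 h arrays and all 4 of the 24 h arrays lay below all unscratched arrays, as in 13% of all genes at 15 h and 8.04% at 24 h. The fitted change at 24 h was -0.39 ± 0.10, or 0.764-fold (limma adjusted p = 0.0168). The call was lost without either HPAEC 0 h array, the first HPAEC 24 h or the second H838 24 h array (-0.38 to -0.32, adjusted p 0.0521 to 0.0958), and without both second HPAEC arrays (-0.38, adjusted p = 0.115). The late window changed by -0.30 ± 0.08 (limma adjusted p = 0.0261). This was lost without either HPAEC 0 h array, the HPAEC 15 h or the H838 10 h array (-0.28 to -0.25, adjusted p 0.0669 to 0.113), and without both second HPAEC arrays (-0.28, adjusted p = 0.139). Within chip 1 and chip 2 the change was -0.56 and -0.32 at 24 h, and -0.37 and -0.26 in the late window.

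At 15 h MYC differed by -0.37 ± 0.12 (limma adjusted p = 0.0682) and at 2 h by 0.37 ± 0.12 (adjusted p = 0.168). The early and middle windows differed by 0.04 and 0.05 (adjusted p = 0.879 and 0.777). In the duplicated arrays of both co-cultures the 24 h minus 0 h difference was -0.39 ± 0.10 (adjusted p = 0.0549). The dimmer MYC probe followed the brighter one loosely, with a correlation of 0.59 over the 24 arrays that both probes share. Beside HPAEC it lay between 8.41 at 0.5 h and 9.23 on the second 0 h array, and beside H838 between 8.58 on the first 24 h array and 9.48 at 2 h. In a fit over all kept probes it passed the time test (limma adjusted p = 0.0337), with a late change of -0.28 ± 0.10 (adjusted p = 0.0808) and a 24 h change of -0.31 ± 0.12 (adjusted p = 0.110).

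**Figure D3:**
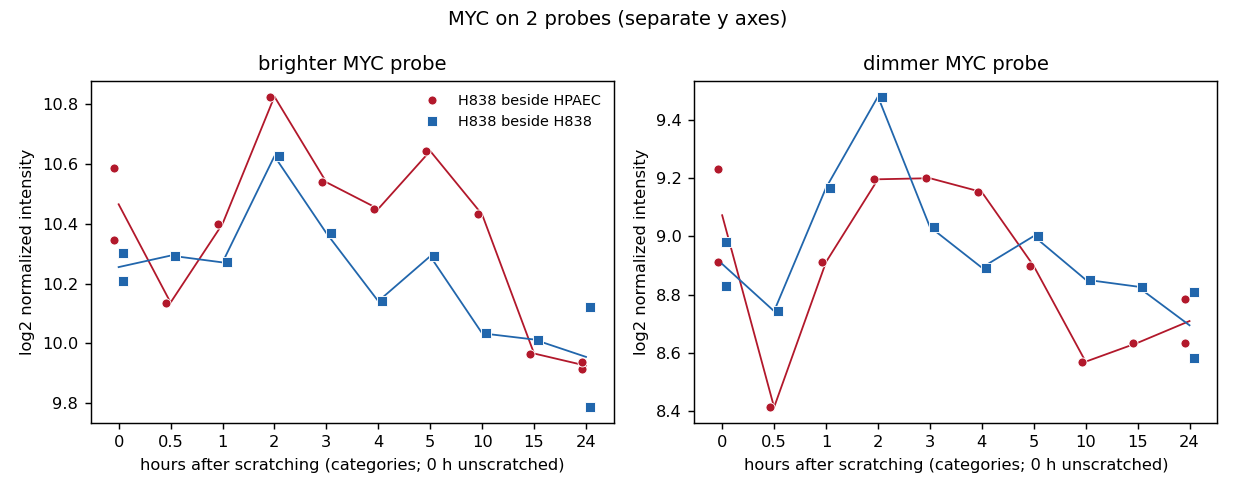
Log2 normalized intensity (y axes on separate scales) of the brighter (left) and dimmer (right) MYC probe against hours after scratching (x axis, categories), 1 point per array, red circles beside HPAEC and blue squares beside H838. Both probes have their highest H838-beside-H838 value at 2 h (10.63 and 9.48), and the dimmer probe has its lowest value, 8.41, at 0.5 h beside HPAEC.

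Across the 5 genes the arrays of 1, 2, 15 and 24 h were set against the unscratched ones. These are times at which some of the 5 genes had their highest or lowest fitted level in the same data. Other times were not compared in this way, so the shares of all genes beside these counts are a description. At 1 h both arrays lay above all 4 unscratched arrays in 2 of 5 genes (IER2 and IER5), against 5.28% of all genes. At 2 h both arrays lay above all 4 unscratched arrays in 4 of 5 genes (IER3, IER5, IER5L and MYC), against 7.96% of all genes. All 5 were higher at an unadjusted p under 0.05, as 6.19% of all genes were, and only IER3 passed after adjustment. At 15 h both arrays lay below all 4 unscratched arrays in 3 of 5 genes (IER3, IER5L and MYC), against 13% of all genes. In the late window the same 3 were called lower, against 7.56% of all genes called lower and 15.5% called in either direction. At 24 h all 4 arrays lay below the unscratched ones in 2 of 5 (IER3 and MYC), against 8.04% of all genes.

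Levels of IER3 and MYC were the most alike pair over the 24 arrays (r = 0.83), followed by IER3 with IER5L (0.69), IER5L with MYC (0.63) and IER2 with IER3 (0.61), while IER5 correlated with the others at 0.22 to 0.26. These correlations share arrays and time points and are a description. Among genes outside the group, IER2 was most like FOS (r = 0.76), SNORA27 (0.76) and RNVU1-18 (0.74). IER3 was most like FOSL1 (0.90), CWC25 (0.89) and EPHA2 (0.87), and MYC most like PHLDA3 (0.87), FOSL1 (0.84) and SNAPC4 (0.82). IER5L was most like TMEM120A (0.84), CIAO2B (0.78) and MRPS15 (0.78). IER5 had the weakest neighbours, TSPAN14 (0.65), ZNF503 (0.65) and COPG2 (0.63).

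None of the 5 genes passed the test of the partner cells. Between H838 beside HPAEC and H838 beside H838, adjusted for time and chip, the difference was 0.20 ± 0.09 for IER3 (95% interval 0.01 to 0.39; limma adjusted p = 0.226) and 0.21 ± 0.09 for IER5L (0.03 to 0.40; adjusted p = 0.200). It was 0.06 ± 0.08 for MYC (-0.11 to 0.23), -0.07 ± 0.08 for IER5 (-0.23 to 0.09) and -0.08 ± 0.12 for IER2 (-0.33 to 0.17), with adjusted p of 0.728, 0.656 and 0.765. IER3 was higher beside HPAEC at 9 of 10 times, IER5L at 8, MYC at 7, IER2 at 5 and IER5 at 2. The comparison called 2.02% of all genes. Without a chip term IER3 and IER5L passed (0.20, limma adjusted p = 0.0335, and 0.19, adjusted p = 0.0377), in a fit that called 1723 of 11494 genes. With this layout most of that comparison cannot be told apart from the chip.

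There were 4 comparisons on a shared chip, and there IER3 beside HPAEC minus beside H838 was -0.15 at 0 h on chip 1, 0.41 at 0 h on chip 2, 0.15 at 0.5 h and 0.22 at 24 h. For IER5L the same pairs gave 0.35, -0.16, 0.51 and 0.04. The change with time did not differ detectably between co-cultures: in the window model 0 of the 5 genes and 0 of 11494 genes (0%) passed limma's adjusted threshold, with 530 genes at an unadjusted p under 0.05. The intervals are wide. For IER3 the difference in the middle-window change was 0.33 (95% interval -0.30 to 0.95), and for IER2 it was -0.56 (-1.34 to 0.21). The profiles over 10 times correlated between co-cultures at 0.93 for IER3, 0.80 for IER5L, 0.78 for MYC and 0.74 for IER2.

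Other immediate early genes gave the scale of the response. A list of 59 symbols, older names of some genes among them, gave 44 tested genes. In the early window 14 of these rose and 0 fell. In the middle window 12 rose and 4 fell, and in the late window 6 rose and 5 fell. Their median changes were 0.26, 0.13 and -0.02, against -0.01, -0.01 and 0.00 over all genes. Of all genes, limma called 0.461% in the early, 15.3% in the middle and 15.5% in the late window. FOS, a subunit of AP-1, was not above background on any unscratched array and was at least 7.08-fold higher early (limma adjusted p = 1.4e-12). FOSB, another AP-1 subunit, rose by 2.76 and EGR1, a zinc finger factor, by 2.16 on the log2 scale, and SPRY4, a feedback inhibitor of growth factor signalling, by 0.83. In the middle window FOSB (1.25) and the differentiation inhibitors ID2 (1.00) and ID1 (0.72) were higher and EGR1 was lower (-1.12). In the late window EGR1 (-1.27), FOSB (-0.65, detected on 1 of 8 arrays) and KLF4 (-0.46, detected on 4 of 8) were lower and NR4A2 was higher (0.48).

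**Figure D4:**
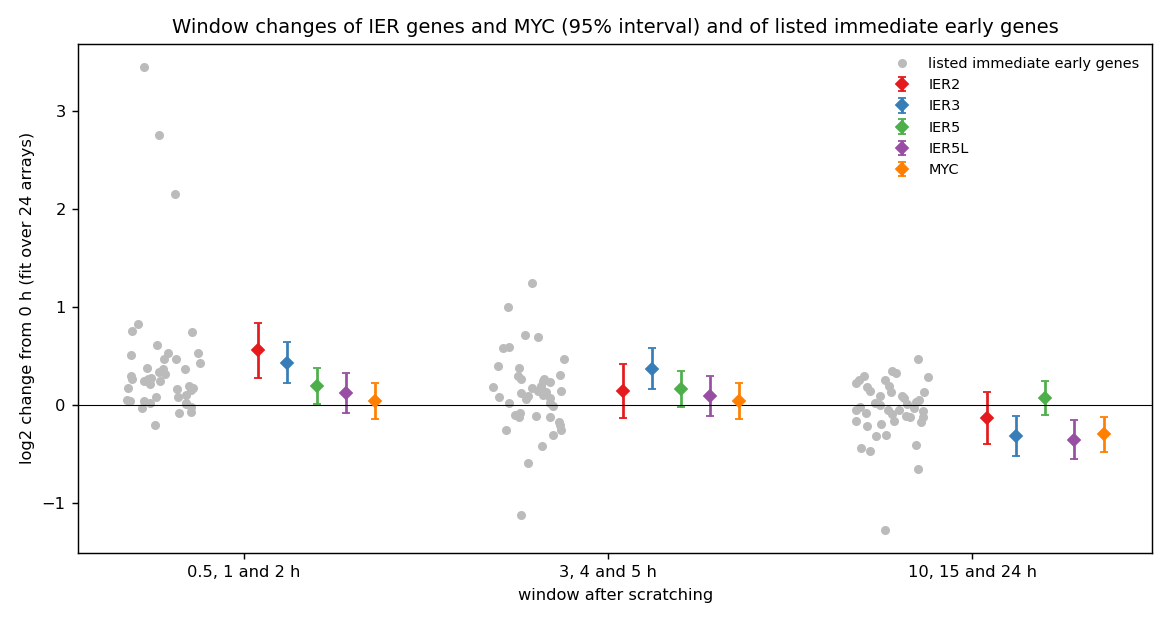
Fitted log2 change from 0 h (y axis) in 3 windows after scratching (x axis), with grey points for the 44 tested immediate early genes of the list and coloured diamonds with 95% intervals for the 5 genes. IER2 (0.56) and IER3 (0.44) have the highest early values of the 5, far below FOS, and IER3, IER5L and MYC lie below 0 in the late window.

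Partners and antagonists of MYC changed more downward than upward. The list of the MYC and MAX network held 21 symbols, an older name among them, and 16 genes were tested. In the early window 0 of these passed. In the middle window 1 rose and 4 fell, and in the late window 0 rose and 6 fell. The medians in the 3 windows were 0.01, -0.16 and -0.11. Over all genes 15.3% were called in the middle window and 15.5% in the late window (7.56% lower), with medians of -0.01 in the early and middle windows and 0.00 in the late window. The genes that fell included MXD3 (-0.84 middle, -0.88 late) and MNT (-0.49 and -0.46), which encode repressors that compete with MYC for MAX. MXI1, another such repressor, was detected on 0 of 6 middle-window arrays and on 3 of 4 unscratched arrays, and was at least 1.18-fold lower (limma adjusted p = 6.7e-05). MLXIPL (-0.46), a glucose-responsive factor of the network, and RUVBL2 (-0.44), a helicase cofactor, fell late. FBXW7, which marks MYC protein for degradation, rose in the middle window (0.54).

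Some MYC target genes of ribosome biogenesis and growth rose in the middle window. Of 32 tested (38 listed), 0 passed early, 9 rose and 1 fell in the middle window, and 5 rose and 2 fell late, with medians of 0.02, 0.09 and 0.05, against shares over all genes of 15.3% in the middle and 15.5% in the late window. RRS1 (0.83), a ribosome assembly factor, POLR1B (0.62), a subunit of RNA polymerase I, and the ribosome assembly factors GRWD1 (0.56) and NOP16 (0.55) rose in the middle window. In the late window UTP20 (0.51, detected on 1 of 4 unscratched arrays), POLR1B (0.41) and the cap-binding factor EIF4E (0.40, also on 1 of 4) were higher and the spermidine synthase SRM was lower (-0.31). At 24 h, where MYC was called lower, 1 of the 32 was higher and 6 were lower (median -0.11, against 0.00 over all genes), and 11.4% of all genes were called at that time.

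Several HSF1 targets, listed because IER5 acts on HSF1, rose over the late window. Of 15 tested (16 listed), 0 passed early, 2 rose in the middle window and 7 rose in the late window with 0 lower, at medians of -0.07, 0.01 and 0.26, against 15.3% of all genes called in the middle and 15.5% in the late window. At 24 h alone, the last time of the late window, 1 was higher and 2 were lower (median -0.03). HSPA1B (0.63) and HSPA1A (0.62), near-identical HSP70 genes whose probes may not tell them apart, the HSP70 cochaperone HSPH1 (0.42) and the HSP90 cochaperone CHORDC1 (0.40) rose late, and the cochaperones DNAJB1 (0.37) and BAG3 (0.25) in the middle window. IER5 itself was not called in either. The list of regulators and partners of the IER genes held 25 symbols, older names among them, and 18 genes were tested. ELF1, an ETS factor, rose (0.50) and MAP2K1, the kinase upstream of ERK, fell (-0.22) in the middle window. CDC25B, a cell cycle phosphatase, fell late (-0.32). The other 15 were not called in any window. These counts, 2 of 18 and 1 of 18, lie below the shares of 15.3% and 15.5% called over all genes. HSPE1 stands in both the HSF1 and the MYC target list, and SRF in both the immediate early and the regulator list. The co-culture comparison nearly coincided with the chips. It called 2.02% of all genes, and 0 genes without both second HPAEC arrays. In the main fit 2 of 44 tested immediate early genes were higher and 1 was lower beside HPAEC. Of 32 tested MYC targets 1 was higher, and 0 genes of the other 3 lists passed limma's test.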

How the data were processed

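The starting point was the deposited table of linear bead intensity before normalization, which per the file headers pairs each intensity with a detection p-value. A second deposited table holds the authors' normalized linear intensity and served as an alternative. The software the authors used is not given in the sources used here. Per the labels' protocols, RNA was amplified to biotinylated cRNA and hybridized to Illumina HT-12 arrays.

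Intensities were corrected with limma's normal-exponential model (control statistics inferred from detection p-values, offset 16), quantile normalized and transformed to log2. A probe entered if its detection p-value was under 0.01 on 2 or more of 24 arrays, which 20054 were (15292 with a gene name). Each gene was represented by its brightest such probe, giving 11494 genes. Probe names came from the supplied annotation: 1 symbol for 30080 probes, several for 8, and none listed for 17198. Arrays have no read depth: each detected 15488 to 17555 probes, and their number limits the precision. Where a group lay below background on every array, a fold is given as a bound from the lowest signal among detected probes.

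Tests used limma 3.58.1 in R 4.3.3 (data.table, version 1.17.8), both sides, with Benjamini-Hochberg adjustment over all genes and a threshold of 0.05. The main model had time, co-culture and chip as terms (12 residual degrees of freedom). The window model (window by co-culture, with chip) had 15, and that of the 8 duplicated arrays had 3. With 1 array per co-culture at most times, the error of the main model also holds departures from an equal co-culture difference. Within 1 chip, 1 to 2 degrees of freedom remained. Chip 2 held no 0.5 h array, so within it the early window covered only 1 and 2 h and the time test lacked 0.5 h. The code was tested on simulated data. Same-numbered duplicates were checked for pairing: deviations from group means correlated at -0.05 to 0.13 between groups, so the numbers were not treated as pairs.

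The 5 genes, the lists and the tests were chosen with earlier results of these data known. Named beside the 5 genes are the 4 largest called changes per list and window, and for each gene the 3 genes with the highest correlation over the 24 arrays. Alternatives changed the background correction, scaling, probe filter, chip term and the arrays used. Leaving out the second HPAEC arrays was chosen after the data were seen.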

Additional observations from a re-analysis of the deposited data

How the results depend on the processing

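The time test called the same 4 of 5 genes in all fits that left out 1 array, where it called 2057 to 2689 genes (main 2629). With 1 array left out, the early window called 31 to 69 genes (0 to 1 of the 5), the middle window 970 to 1831 (0 to 1), the late window 856 to 1864 (1 to 3), the co-culture test 10 to 261 (0 of the 5) and the duplicated arrays 3 to 410 (0 to 1); the co-culture by window test called 0. Median scaling called 1347 genes over time (820 higher and 527 lower, main 1408 and 1221), 20 early, 585 in the middle window (206 higher and 379 lower, main 919 and 837), 571 late (416 higher and 155 lower, main 911 and 869), 5 by co-culture and 532 in the duplicates. It shifted the median of all genes by -0.19 at 1 h and 0.16 at 15 h, and called 0 of the 5 genes in the middle and late windows. There the adjusted p was 0.156 for MYC over time, 0.128 for IER3 at 2 h (0.75), 0.172 for IER3 at 24 h (-0.44), 0.107 for IER5L at 15 h (-0.47), 0.206 for MYC at 24 h (-0.38) and 0.276 for IER2 at 24 h beside HPAEC in the duplicates (-0.39), and MYC's uncalled early and middle values turned to -0.060 and -0.027. The cause was not tested.

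Early, 2 of the 5 genes (IER2 and IER3) were called with an offset of 50, without background correction, in the authors' table and among genes detected on all arrays. By co-culture these gave 393 genes without background correction, 365 in the authors' table and 423 detected on all arrays, against 129 with no filter, 137 over all kept probes and 232 in the main fit. In the duplicates (main 1093 genes) they gave 1725 (offset 50), 2013 (no correction), 1903 (authors' table), 1991 (detected on all) and 440 (no filter). Of the 5 genes, 2, 2, 2 and 3 passed there in the first 4 and 0 with no filter or over all kept probes. IER3 late (adjusted p = 0.0583 with no filter and 0.0508 over all kept probes) and at 3 h (0.0667 and 0.0623), and IER2 at 24 h beside HPAEC (0.0765 and 0.0624), were also lost there. In the authors' table IER5L missed the time test (adjusted p = 0.0676).

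With chip left out, 1723 genes and 2 of the 5 passed by co-culture (2 in the duplicates), and with chip as a random block 1949 and 2. Chip 1 alone called 4 genes over time, 7 early, and 0 in the middle window, late window and by co-culture. Chip 2 alone called 20, 10, 5, 0 and 0, and 0 of the 5 genes passed on either chip, where few degrees of freedom remain. Pairs on a shared chip called 0 genes by co-culture. Without both second HPAEC arrays 1601 genes passed over time, 34 early, 849 middle, 772 late (1 of the 5) and 0 by co-culture. The replicate block, on numbers that did not pair the samples, called 2 of the 5 in the duplicates, with MYC at -0.42 (adjusted p = 0.0273).

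Signs turned only in uncalled values. IER2 at 24 h beside H838 was -0.037 under median scaling, -0.00045 in the authors' table and -0.13 with chip left out or the replicate block. IER2 by co-culture was 0.052 with chip left out, 0.060 with chip as a random block, 0.15 on chip 1, 0.034 in shared-chip pairs and 0.011 without both second HPAEC arrays. On chip 1 IER2 was -0.18 in the middle window, and IER5 was -0.034 late and 0.13 by co-culture. On chip 2 IER2 was 0.048 late, and IER5L was -0.11 early (without 0.5 h, which chip 2 lacks), -0.13 middle and -0.050 by co-culture. Without both second HPAEC arrays IER5 was 0.11 by co-culture and IER5L -0.044 in the middle window. With 1 array left out, MYC ranged over -0.019 to 0.094 early, -0.0061 to 0.093 in the middle window and -0.0028 to 0.10 by co-culture (negative without the first H838 0 h array), and IER5 over -0.13 to 0.0042 by co-culture (positive without the second HPAEC 24 h array).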
